A study of Mus musculus with 12 samples.

Results

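The transcripts described here are those of 8 complement genes, taken by name from the 31053 genes of a scRNA-Seq matrix of CD45+ cells from MC38 tumors: the C1q chains C1qa, C1qb and C1qc, the alternative pathway components C3, Cfb and Cfp, and the anaphylatoxin receptors C3ar1 and C5ar1. MC38 is a murine colon adenocarcinoma line, here grown under the skin of C57BL/6 mice, and CD45 marks leukocytes. The 12 mice formed 4 groups of 3, given vehicle for 7 days, vehicle for 16 days, the EZH2 inhibitor (EZH2i) PF-06821497 at 100 mg/kg daily for 7 days, or the same dose for 16 days, and all tumors were taken on day 17. Each barcode ends in the number of its library, 1 to 12, and no label says which mouse a number stands for, so EZH2i was not compared with vehicle, no test was run, and each level is given over libraries as a range and a median.

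Complement is a cascade of plasma proteins that tags cells and debris for uptake and attracts leukocytes. The classical pathway starts when C1q, a complex of A, B and C chains, binds immune complexes or dying cells. In the alternative pathway C3b joins factor B (Cfb) in a convertase that properdin (Cfp) stabilizes, and the released fragments C3a and C5a act on the receptors C3ar1 and C5ar1. The liver makes most plasma complement, whereas macrophages are a main source of C1q, and neutrophils are known to store properdin and to respond to C5a.

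Of 140639 barcodes, 128912 passed the filters on genes and mitochondrial UMIs. Total UMIs ran from 21649947 to 158760328 per library and the median per kept cell from 2291 to 15081. A cell was assigned to a class when the UMIs of a marker list reached 3, came from at least 2 of its genes and were at least 2 times those of every other list. This gave 72516 macrophage-like, 13158 monocyte-like, 1713 dendritic-like, 3561 neutrophil-like and 6492 lymphocyte cells, while 31254 cells (24.24%) stayed ungated, 67.48% of which had the macrophage and monocyte lists highest. None of the 8 genes is in a marker list. Markers outside the gates followed the labels: Apoe had a median of 20937 CPM (UMIs of a gene per 1000000 UMIs of the class) in macrophages, Hp was 120 in monocytes against 2.85 in macrophages, and Thy1 was 361 in lymphocytes. The macrophage checks Csf1r, Cd68 and Apoe were still at 3.61% to 4.91% of their macrophage level in lymphocytes by median (1.86% to 17.6% over single libraries), and the source of these UMIs was not tested.

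Several libraries stood apart. Library 4 held 42 lymphocytes, under the 50 cells needed for a value, and 1361 of the neutrophil-gated cells. Library 6 had the most kept cells (37413), the lowest median UMIs (2291) and the highest C1q level in lymphocytes. Libraries 1 to 6 held Y-linked transcripts at 128 to 209 CPM and almost no Xist, whereas libraries 7 to 12 held none and Xist at 658 to 870 CPM, although the study describes female mice. Of 138353 barcode sequences, 2261 (1.634%) occurred in more than 1 library, at most 182 in a pair (libraries 5 and 6). Of 40 medians (8 members in 5 classes), 17 differed by more than 1.5 times between libraries with and without Y-linked transcripts: 0 of 8 in macrophages, 1 in monocytes, 6 in dendritic cells, 6 in the neutrophil gate and 4 in lymphocytes. Among the 6 in dendritic cells, those of C3, C3ar1 and C5ar1 rest on few UMIs, 0 to 75 per library. Whether the division coincides with treatment or its duration is not labelled, so these cannot be told apart by label. Many of the values that move with the division or with libraries 4 or 6 are given both ways, but not all. The lymphocyte level of C1qa itself had medians of 308 CPM with and 175 CPM without Y-linked transcripts.

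C1qa, C1qb and C1qc lie side by side on the minus strand of chromosome 4, within 18675 bases. In GENCODE M21 (GRCm38, the build mm10 of the files) C1qb (ENSMUSG00000036905) spans chr4:136880129-136886187, C1qc (ENSMUSG00000036896) chr4:136889804-136893065 and C1qa (ENSMUSG00000036887) chr4:136895917-136898803, with gaps of 3616 and 2851 bases. C3 (ENSMUSG00000024164) spans chr17:57203970-57228136 and Cfb (ENSMUSG00000090231) chr17:34856374-34862518, C3ar1 (ENSMUSG00000040552) chr6:122847138-122856161, C5ar1 (ENSMUSG00000049130) chr7:16246743-16259540 and Cfp (ENSMUSG00000001128) chrX:20925454-20931555. The protein-coding gene Gm20547, which the files also count, overlaps Cfb on the same strand, so Cfb counts may miss reads that both genes could claim.

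Start-site sequences in RefSeq (GRCm38.p6) were found for 6 of the 8 genes, all but C1qa and Cfb. Those of C1qb and C1qc are shown because the C1q chains varied together, and that of C3 because its level was higher in monocytes than in macrophages. The lines give bases before both the RefSeq and the GENCODE start, 5′ to 3′ on the minus strand, for chr4:136886201-136886450, chr4:136893066-136893164 and chr17:57228137-57228386, with motif matches in capitals.
C1qb: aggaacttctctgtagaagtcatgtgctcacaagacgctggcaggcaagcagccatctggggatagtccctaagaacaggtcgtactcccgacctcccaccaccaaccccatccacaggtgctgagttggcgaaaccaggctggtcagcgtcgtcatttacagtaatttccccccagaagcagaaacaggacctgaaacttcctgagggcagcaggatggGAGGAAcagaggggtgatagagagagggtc
C1qc: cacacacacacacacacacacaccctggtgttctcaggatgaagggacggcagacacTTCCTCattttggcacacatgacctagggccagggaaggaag
C3: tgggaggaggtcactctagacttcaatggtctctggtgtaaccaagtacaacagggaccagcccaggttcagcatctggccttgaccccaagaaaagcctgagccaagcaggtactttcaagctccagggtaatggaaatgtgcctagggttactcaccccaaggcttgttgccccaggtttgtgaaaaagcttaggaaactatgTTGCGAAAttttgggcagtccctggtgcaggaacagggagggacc

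The letters GAGGAA, the core bound by PU.1-type ETS factors, were searched on both strands and occurred once in C1qb and once in C1qc. They are present in 23.25% of all 32851 RefSeq promoters over 250 bases. TTGCGNAA, the core of a C/EBP site, occurred once in C3 and in none of the other 5 members searched, against 0.67% of all promoters. GAAANNGAA, found in interferon response elements, occurred once in C5ar1 (7.13% of promoters), and TTCNNNGAA of STAT sites (7.02%) in none of the 6. No matches overlapped in the sequences shown. A match describes letters and is no evidence of binding.

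The C1q chains were highest in macrophages, and of the 8 transcripts they had the lowest monocyte levels as a share of the macrophage level, with medians of 21.79% to 33.61% against 50.81% for C3ar1, the next. C1qa ran from 4939 to 7412 CPM in the macrophages of the 12 libraries (median 6268), from 895 to 2112 in monocytes (median 1419) and from 134 to 800 in the lymphocytes of 11 libraries (median 183). The macrophage and monocyte ranges did not overlap, and the macrophage level was 2.34 to 6.37 times that of monocytes in the same library. C1qb had medians of 5093 CPM in macrophages, 1704 in monocytes and 197 in lymphocytes, and C1qc 3578, 753 and 114. The order of the classes was the same for all 3 chains.

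**Figure D1:**
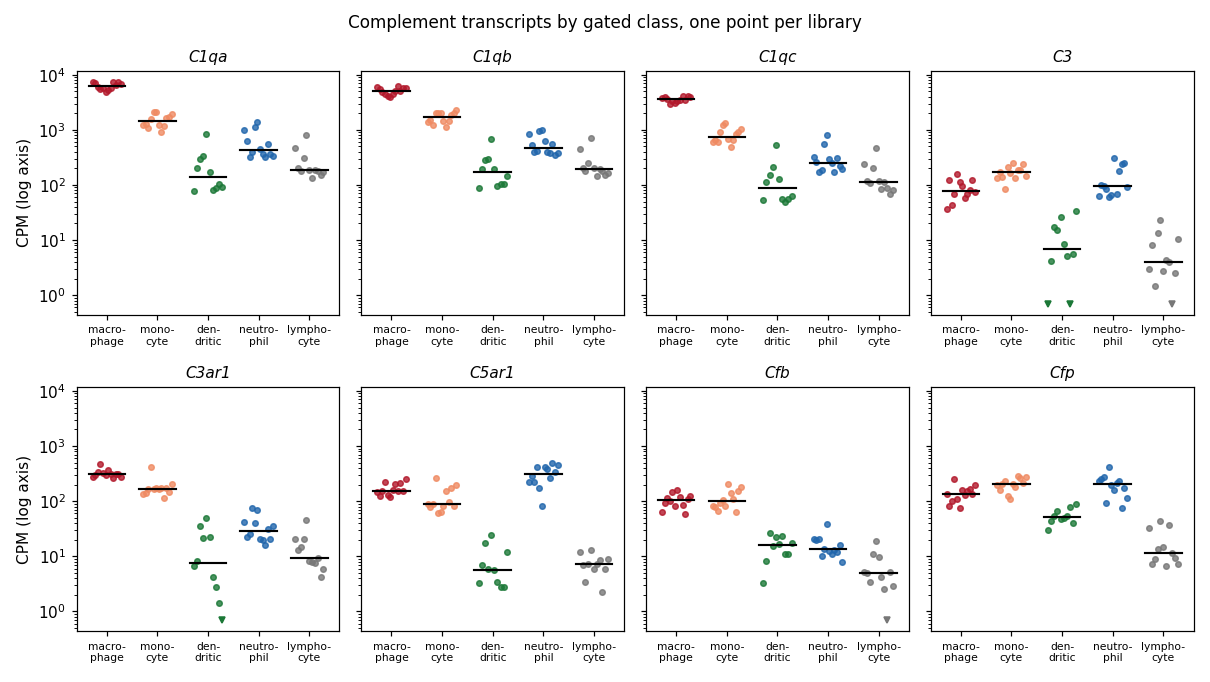
CPM of each gene (log axis) in the 5 gated classes, with 1 point per library with at least 50 cells, a black line at the median, and a triangle for a library at 0. C1q chains are highest in macrophages, C3 is higher in monocytes than in macrophages, and C5ar1 and Cfp reach or pass the macrophage level in the neutrophil gate.

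Of the 1713 dendritic-like cells, 1412 had the mature list highest (Ccr7, Fscn1, Ccl22, Cacnb3), 266 the Xcr1 list and 26 the Cd209a list. Library 6 held 638 of the 1713. The levels of this class therefore mostly describe cells led by the mature list. Dendritic-like cells held C1q at or below the lymphocyte level in most libraries. C1qa was 76.8 to 850 CPM there over 10 libraries (median 137) and exceeded the lymphocytes of the same library in 2 of 9, with a median ratio of 0.689. C1qb did so in 1 of 9 and C1qc in 3 of 9. The dendritic median of C1qa was 297 CPM in libraries with Y-linked transcripts and 92.4 in those without them. In the neutrophil gate C1qa was 322 to 1372 CPM (median 426), above lymphocytes in 11 of 11 libraries by 1.71 to 3.6 times. Its median there was 794 CPM in libraries with Y-linked transcripts and 365 in those without them. In the cells of this gate with S100a8 and S100a9, described further on, these medians were 399 and 337. The 399 lacks libraries 5 and 6, which had under 50 such cells and C1qa at 1108.5 and 1372 CPM in the whole gate. In cells with S100a8 and S100a9, C1qa was above lymphocytes in 7 of 9 libraries (lowest ratio 0.92), C1qb in 6 of 9 (0.744) and C1qc in 7 of 9 (0.615). As a share of the macrophage level C1qa was 7.87%, C1qb 9.39% and C1qc 6.85% in the whole neutrophil gate by median. Csf1r stood at 21.2%, Cd68 at 38.2% and Apoe at 8.31%.

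A rule of at least 4 times the lymphocyte level in every library was applied to 9192 genes with a mean of 5 CPM or more. In macrophages 7 of the 8 members met it, against 2.59% of all genes, and the member that missed it was Cfp. In monocytes 3 of 8 did (C3, C5ar1 and Cfb), against 1.29%, in dendritic cells 0 of 8, against 1.68%, and in the neutrophil gate 2 of 8 (C5ar1 and Cfp), against 1.35%. Library 6 set several of these limits: without it 8 members met the rule in macrophages (4.21% of all genes), 5 in monocytes (C3ar1 and Cfp added, 3.32%) and 3 in the neutrophil gate (C3 added, 2.77%). In the 6 libraries without Y-linked transcripts all 8 did in both macrophages (4.82% of all genes) and monocytes (4.05%). Of the 6 libraries with them, 5 have a lymphocyte value, and over those 5 the counts were 7 (3.14%) and 3 (1.76%).

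The 3 chains were found together in single macrophages. With each cell thinned to 1000 UMIs, 89.56% of 72002 macrophages had a UMI of all 3 chains (exact 95% binomial interval 89.33% to 89.78%, counting error only) and 0.81% had none. Monocytes had all 3 in 28.01% and none in 37.27% of 12518 cells, so they were a mixture of cells with and without C1q UMIs. In lymphocytes, which should lack C1q, 3.24% of 5747 cells had all 3 and 66.52% none. Median depths before thinning were 5707 UMIs in macrophages, 3968 in monocytes and 2509 in lymphocytes. Unthinned, all 3 chains were found in 97.99%, 46.34% and 9.15%.

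The proportion of the chains differed between macrophages and monocytes. UMIs of C1qb were 0.72 to 0.909 times those of C1qa in macrophages (median 0.81) and 0.961 to 1.29 times in monocytes (median 1.17). The monocyte ratio was the higher in 12 of 12 libraries, and libraries 5 and 6 alone had it below 1. In lymphocytes the ratio was 0.808 to 1.09 (median 0.978), above that of macrophages in 11 of 11 libraries. C1qa made up a median of 42.1% of C1q UMIs in macrophages, 36.85% in monocytes and 40.21% in lymphocytes. The source of the lymphocyte UMIs was not tested.

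**Figure D2:**
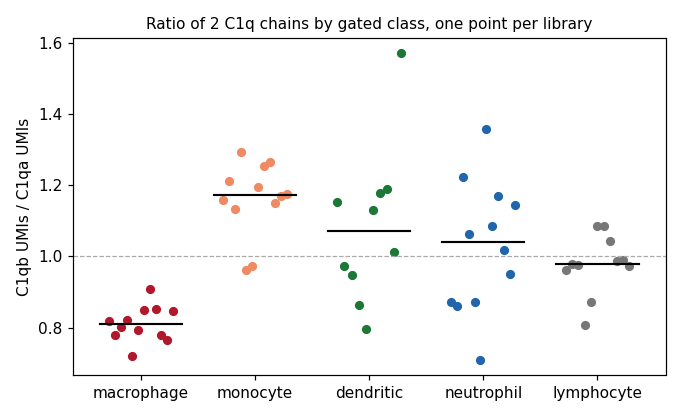
Ratio of C1qb to C1qa UMIs in each class, 1 point per library, with the median as a black line and a dashed line at 1. All 12 macrophage points lie below 1 and 10 of 12 monocyte points above it, and dendritic and neutrophil points, which rest on few UMIs, spread over both.

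C3, whose cleavage is the step on which all complement pathways meet, was higher in monocytes than in macrophages. Macrophages held 36.7 to 158 CPM (median 78) and monocytes 83.8 to 253 (median 169). The ranges overlapped across libraries, yet within each of the 12 libraries monocytes were higher, by 1.23 to 3.65 times. The neutrophil gate held 61.2 to 304 CPM (median 94.6), above macrophages in 9 of 12 libraries, and lymphocytes 0 to 23.6 (median 4.06). In the libraries with Y-linked transcripts the median of the neutrophil gate was 74.7 CPM, above macrophages in 3 of 6, and in those without them 208, above macrophages in 6 of 6. Dendritic cells had a median of 6.96 CPM. With Y-linked transcripts their median was 15.2 CPM, above lymphocytes in 2 of 4 libraries, and without them 5.58, above lymphocytes in 4 of 5. These dendritic values rest on 0 to 40 UMIs of C3 per library.

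Cfb, the protease of the alternative convertase, was 58.7 to 161 CPM in macrophages (median 105) and 64.3 to 201 in monocytes (median 99.7). Which class was higher moved with the Y-linked division. Monocytes were higher in 6 of 6 libraries without Y-linked transcripts (median ratio 1.285, monocyte median 147.5 CPM) and in 1 of 6 with them (0.902, 81.2 CPM). Cfb was 8.03 to 37.8 CPM in the neutrophil gate and 0 to 19.3 in lymphocytes, so the neutrophil and macrophage ranges did not overlap. In dendritic cells it was 3.34 to 26.9 CPM, above lymphocytes in 8 of 9 libraries by a median of 1.73 times. The median ratio was 1.27 with Y-linked transcripts (higher in 3 of 4 libraries) and 4.36 without them (5 of 5). These ratios rest on few UMIs, 2 to 34 of Cfb per library in dendritic cells and 2 to 54 in lymphocytes.

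Cfp, a positive regulator of the pathway, was higher in monocytes (108 to 285 CPM, median 206.5) than in macrophages (75.6 to 250, median 135) in 11 of 12 libraries, library 4 being the exception. Dendritic cells held 30.1 to 87.2 CPM (median 51.7), or 42.77% of the macrophage level, whereas Csf1r, Cd68 and Apoe stood at 2.66% to 7.04%. Cfp passed all 3 of these genes in 10 of 10 libraries of dendritic cells and in 11 of 11 of lymphocytes, where it was at 8.87% (6.68 to 43.2 CPM, median 11.5). It was the one member above them in lymphocytes throughout. In the neutrophil gate Cfp was above monocytes in 5 of 6 libraries with Y-linked transcripts and in 1 of 6 without them.

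**Figure D3:**
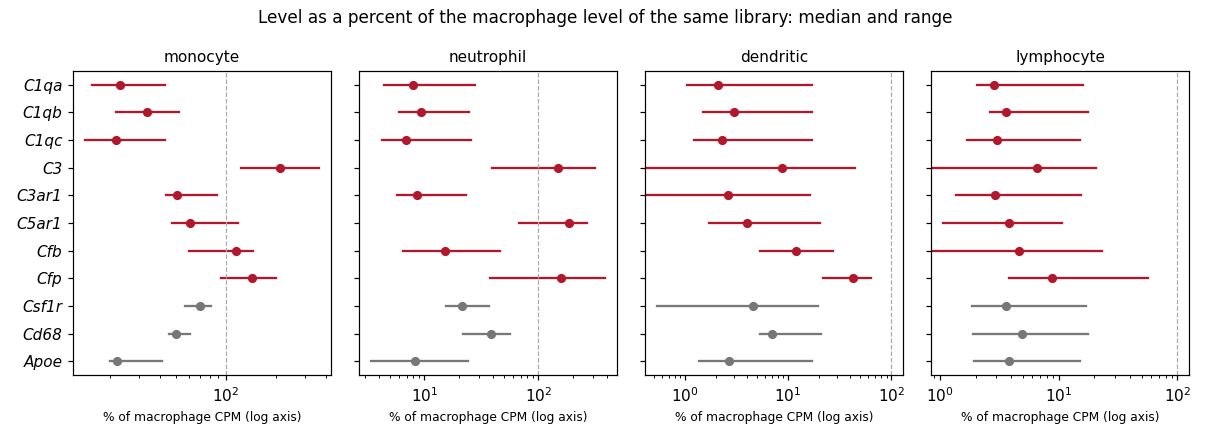
Level of the 8 members (red) and of the macrophage checks Csf1r, Cd68 and Apoe (grey) in other classes, as a percent of the macrophage CPM of the same library (log axes that differ between panels), with points at medians and lines over the range; a line that leaves the left edge reaches 0. In dendritic cells Cfp (42.77%) lies to the right of the checks, and in the neutrophil gate C3, C5ar1 and Cfp lie past 100%.

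C3ar1, the receptor of C3a, was highest in macrophages (265 to 465 CPM, median 306), about 1.97 times the monocyte level (115 to 410.5, median 166) and higher in 12 of 12 libraries. Library 4 had the highest value in both classes, and without it the medians were 306 and 164. In the neutrophil gate C3ar1 was 16.3 to 75.8 CPM (median 28.2) and in dendritic cells 0 to 49.6 (median 7.52), against 4.25 to 46.5 in lymphocytes. The neutrophil range lay below that of monocytes and overlapped that of lymphocytes. In libraries with and without Y-linked transcripts the C3ar1 medians were 41.1 and 20.7 CPM in the neutrophil gate, 21.1 and 2.77 in dendritic cells and 20.5 and 7.75 in lymphocytes. The dendritic values rest on 0 to 75 UMIs of C3ar1 per library.

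C5ar1, the receptor of C5a, was instead highest in the neutrophil gate. It ran from 81 to 491.5 CPM there (median 309), from 119.5 to 248 in macrophages (median 155), and from 60.3 to 268 in monocytes (median 89.5). The median of the gate was 219.5 CPM in libraries with Y-linked transcripts and 404 in those without them. The gate was above macrophages in 11 of 12 libraries, all but library 6, and macrophages were above monocytes in 11 of 12, all but library 4. Dendritic cells (median 5.71 CPM) and lymphocytes (median 7.35, highest 12.9) held little. With cells thinned to 1000 UMIs, 33.46% of neutrophil-gated cells had a UMI of C5ar1, 13.22% of macrophages and 0.8% of lymphocytes. This left out 1230 of the 3561 neutrophil-gated cells, which had fewer UMIs, and at 500 UMIs, with all cells used, the shares were 20.86%, 7.04% and 0.339%. The unthinned shares were 45.83%, 50.2% and 2.26%, at a median of 1368 UMIs per cell in the neutrophil gate.

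The neutrophil gate held cells of 2 kinds, divided after their values were seen by the granulocyte transcripts S100a8 and S100a9 at 20 or more UMIs per 10000. Of its 3561 cells, 3051 (85.68%) had them. The other 510 (14.32%) had S100a8 at 75.2 CPM against 23066, and held H2-Ab1 at 9389 CPM, Cd74 at 17096, Mgl2 at 843 and Ccl17 at 942, against 579.5, 936, 9.37 and 24.3 in the S100-positive cells. Il1r2, which is in the neutrophil marker list and so helped cells pass the gate, was high in both (1554 and 1246). These sums hide a difference between libraries, since 3 libraries had 50 or more such cells. H2-Ab1 was 8420 CPM in library 6 and 12280.5 in library 8 but 2128 in library 4. The neutrophil transcript Csf3r, also in the marker list, was 54.3, 31.1 and 459. Clec4e, a neutrophil check outside that list, was 7.76, 246.5 and 1153. In the S100-positive cells of libraries 8 and 4 Clec4e was 1604 and 1555. The neutrophil name is therefore in doubt for the cells of libraries 6 and 8 and is not settled for the 122 of library 4. C5ar1 was 397 to 551 CPM in the S100-positive cells of 10 libraries (median 467), all above the macrophage range, and 2.67 times macrophages by median. Its medians there were 445 CPM in libraries with Y-linked transcripts and 511 in those without them, closer than in the whole gate. The libraries compared differ, since libraries 5 and 6 had 32 and 40 S100-positive cells and so no value. In the whole gate C5ar1 was 170 and 81 CPM in those libraries. C3 was 86.9 to 403 CPM in S100-positive cells (median 167), above macrophages in 10 of 10 libraries and above monocytes in 6 of 10.

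Cfp was lower in the S100-positive cells. In S100-positive cells it was 53.7 to 179.5 CPM (median 85.8), below monocytes in 10 of 10 libraries and below macrophages in 8 of 10. Summed over libraries, Cfp was 83.1 CPM (exact Poisson 95% interval 76.3 to 90.4, counting error only) in S100-positive cells and 410.5 CPM (385 to 437) in those without S100. C5ar1 was 480.5 against 90.9 CPM. C3 in cells without S100 rested on 93 UMIs, 36 of them from library 11, and was 62.6 CPM against 86.9 in library 4 and 8.38 against 95.6 in library 8. By library, C5ar1 in cells without S100 was 15.5 CPM in library 6, 26.3 in library 8 and 381 in library 4, where S100-positive cells had 424, so its difference was small there. Cfp in cells without S100 was 233 CPM in library 6, 556.5 in library 8 and 151 in library 4, against 68.1 and 88 in the S100-positive cells of libraries 8 and 4. The 26 dendritic-gated cells led by Cd209a, Clec10a and Mgl2 also had Cfp at 408 CPM (321 to 511), while those led by the Xcr1 list had 64.8 and those led by the mature list (Ccr7, Fscn1, Ccl22) 39.4. Of the 8 members, C3 and C5ar1 met the 4-fold rule in S100-positive cells, against 3.88% of all genes, and Cfp did not. This rests on 9 libraries, which lack libraries 5 and 6, against 11 for the whole gate. C3 also met the rule in the whole gate without library 6.

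Within S100-positive cells, those with Ccl3 and no Retnlg, as in activated tumor neutrophils, were set against those with Retnlg and no Ccl3, as in blood neutrophils, in 4 libraries with enough of both. Too few UMIs were left after thinning to 500 UMIs to give C3 a direction: Retnlg cells had 1, 3, 1 and 2 C3 UMIs in libraries 2, 4, 8 and 12, and Ccl3 cells 4, 38, 9 and 6. C5ar1 rested on 16 to 28 UMIs in Retnlg cells and 17 to 145 in Ccl3 cells, with log2 ratios from -0.34 to 0.25, and was higher in Retnlg cells in 2 of 4.

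Kept cells with at least 6 UMIs of the macrophage and monocyte lists together, and at least 2 times every other list, were placed by the macrophage share of these UMIs in 5 bins chosen after the gates were seen. The bins hold gated cells as well as those between the gates. C1qa went from a median of 748 CPM in the bin nearest monocytes through 2420, 4214 and 5681 to 6370, and was higher at each step in 12 of 12 libraries, as were C1qb and C1qc. The last bin held 8.84 times the first for C1qa, 8.49 for C1qc and 5.3 for C1qb. C3ar1 (2.73 times) and C5ar1 (2.06 times) were also higher in the last bin, in 12 and 11 of 12 libraries. C3 went the other way, from 177 to 80.3 CPM, and was lower in the last bin in 12 of 12 libraries, with a median ratio of 0.447. Cfp had a ratio of 0.66 and was higher in the last bin in 1 of 12, whereas Cfb was highest in the middle bin (119 CPM) and had a ratio of 1.01.

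**Figure D4:**
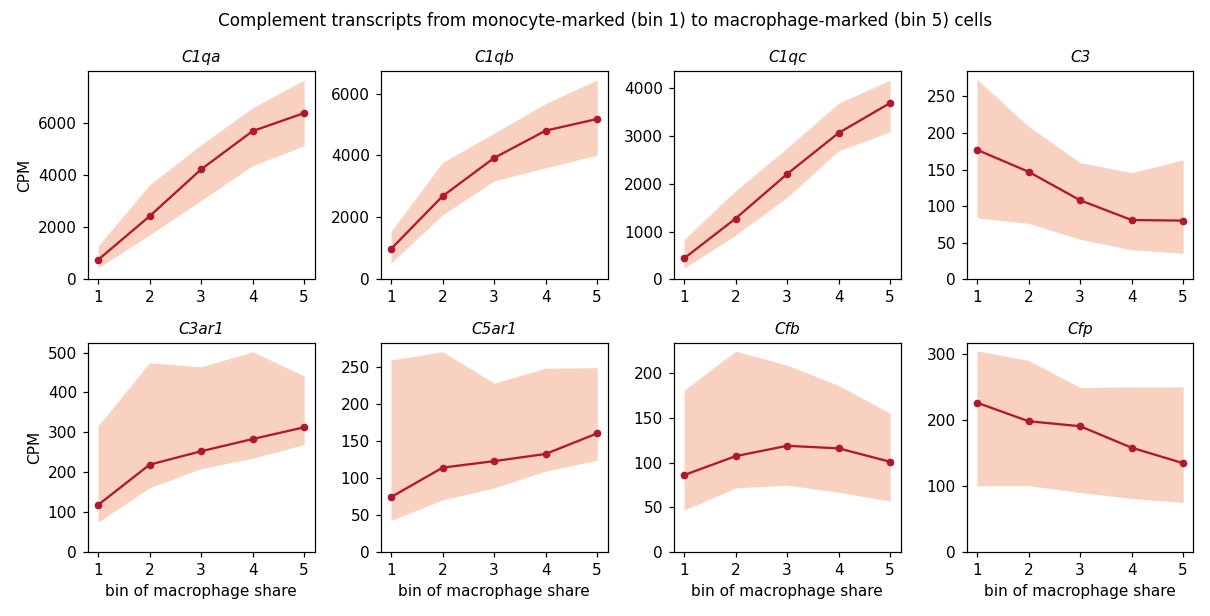
CPM of each gene (linear axes from 0) over 5 bins of the macrophage share of macrophage and monocyte marker UMIs, each covering 20 percentage points, with the median of 12 libraries as points and their range as shading. C1q chains and both receptors are higher toward bin 5, C3 and Cfp are lower, and Cfb ends near where it began.

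Macrophage-like cells were then compared by other transcripts they carried, each cell thinned to 2000 UMIs. Cells with at least 10 UMIs of the MHC class II genes H2-Aa, H2-Ab1 and H2-Eb1 (37325 cells) held more C3 than those with at most 2 (14935 cells). Its medians were 129 and 41.3 CPM, and the log2 ratio was 1.04 to 2 over the 12 libraries, with a median of 1.53. Cfb was also higher in 12 of 12, with a median log2 ratio of 1.14. The receptors were lower in 12 of 12, by -0.39 for C3ar1 and -0.54 for C5ar1, and the C1q chains were within 0.14 of equal by median. H2-Ab1 itself was lower toward the macrophage end of the bins (ratio 0.481), as C3 was, and the part of monocyte-like cells in the C3 difference was not tested.

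C3 and Cfb also went with the interferon-inducible chemokines Cxcl9 and Cxcl10. Cells with at least 3 UMIs of these had C3 at 136 against 70.1 CPM in cells with none (median log2 ratio 1, higher in 12 of 12 libraries) and Cfb at 134 against 88 (0.6, 12 of 12). Cfp was lower in 12 of 12, by a median log2 of -0.26. The C1q chains were higher in 12 of 12 by 0.12 to 0.19, a small difference in level.

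Cells with at least 3 UMIs summed over Folr2 and Mrc1, transcripts of resident-type macrophages, were set against cells with none. The positive cells had less Cfb in 12 of 12 libraries (median log2 ratio -0.56), while C3 had a median of -0.41 and was higher in 2 of 12 (highest 0.3). C5ar1 (0.53), Cfp (0.58) and C3ar1 (0.39) were higher in 12 of 12. C4b, which forms the classical convertase, was higher there too, by 1.29, in 12 of 12. Mrc1 is in the macrophage list, so these cells passed the gate more easily. Cells with at least 3 UMIs summed over Arg1, Vegfa and Hilpda, transcripts of hypoxic macrophages, were likewise set against cells with none. The positive cells had less C1qa (-0.28), C1qb, C1qc and Cfb (-0.5) and more C5ar1 (0.36) and C3ar1 (0.2), each in 12 of 12 libraries. A cell could pass either limit through a single gene of the list. Cycling macrophages had C1qa lower by a median log2 of -0.15 in 8 of 9 libraries. Leaving out library 4 moved no subset ratio by more than its spread over libraries, and how far the lists mark the same cells was not tested.

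**Figure D5:**
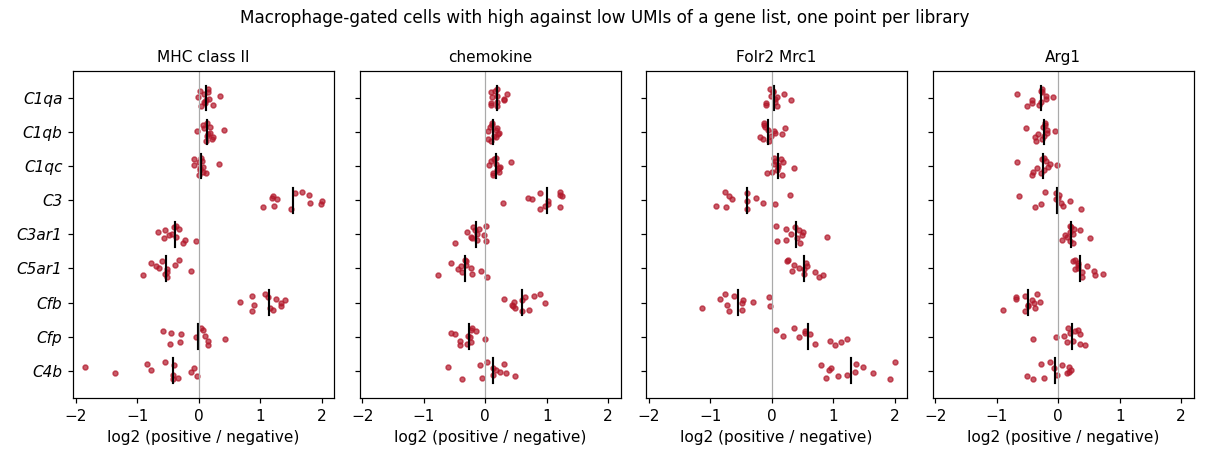
Log2 ratio of CPM in macrophage-like cells positive for a gene list to those negative for it, 1 point per library, with the median as a black line, for the MHC class II, chemokine (Cxcl9, Cxcl10), Folr2 Mrc1 and Arg1 lists. C3 and Cfb lie right of 0 in the first pair of panels, and C4b lies right of 0 in the Folr2 Mrc1 panel in all 12 libraries.

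Of the UMIs of each member, macrophage-like cells held the largest part, from 60.8% for Cfp and 63.42% for C3 to 83.76% for C1qc. These cells were 56.25% of the kept cells and had the highest median UMIs of the 5 main classes (5707). The parts for Cfp and C3 thus lie near the macrophage share of cells. Monocyte-like cells were 10.21% of the kept cells. Monocyte-like cells held 15.54% of C3 and 12.59% of Cfp but 2.54% of C1qa, and ungated cells 13.41% to 24.48%. The neutrophil gate held 2.88% of C5ar1 UMIs with 2.76% of the kept cells.

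Of 43 other complement genes listed, 42 are in the files and 24 had a median under 1 CPM in each myeloid class, among them the terminal components and the mannose-binding lectins. Medians of at least 20 CPM were reached by 11. C4b was 76.1 CPM in macrophages and 25.3 in monocytes. Itgam and Itgb2, which together form complement receptor 3, had their highest medians in the neutrophil gate (255 CPM) and in monocytes (285 CPM), respectively. Itgam ran from 95.2 to 661 CPM in that gate and from 144.5 to 554 in monocytes, and Itgb2 had a median of 164 in lymphocytes. Itgax, of receptor 4, was 124 CPM in both macrophages and monocytes. Cd93 was 92.1 CPM in macrophages, and Lrp1 and Calr, which encode C1q-binding proteins, were 217 and 882. Cr1l, a membrane regulator, C1qbp and Calr were present in all classes. Clu, which blocks the terminal complex, was 35.7 CPM in dendritic cells and 0.446 in macrophages. Its dendritic UMIs lay in cells led by the mature list (539, against 0 in those led by the Xcr1 or the Cd209a list). Of the 42, 12 had the 5 CPM needed for the 4-fold rule. It was met by 4 of these 12 in macrophages (C4b, Itgam, Cd93 and Lrp1; 2.59% of all genes), 2 in monocytes (Itgam and C5ar2; 1.29%), 1 in dendritic cells (Clu; 1.68%), which had the 5 CPM through dendritic cells alone, and 0 in the neutrophil gate (1.35%). In its S100-positive cells 3 met it over 9 libraries that lack libraries 5 and 6 (Itgam, C5ar2 and Cd93, against 3.88% of all genes).

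Over 57 sums of a class in a library, the genes most like each C1q chain by Pearson's r of log2(CPM + 1) were the other chains (0.99 to 0.995) and then Apoe (0.971 to 0.979). C3 was most like Thbs1 (0.927), Ifi204 and Itgam, and C3ar1 was like Itgb5 (0.957) and C1qb. C5ar1 was most like Sdcbp (0.973), Itgam and P2ry13, Cfb most like Ctss (0.927), Adam15 and Plxnb2, and Cfp most like Alox5ap (0.941) and Ifitm3. These values describe 9192 genes over points that share libraries and depth.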

How the data were processed

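The authors prepared 10x Genomics 3′ libraries of CD45+ cells from 12 tumors and deposited 1 matrix of raw UMI counts. Per the labels, Cell Ranger 2.1.1 and Seurat were used with build mm10, while the matrix header names Cell Ranger 3.0.2. The filters of the study were used: above 200 and under 5000 genes per cell, with mitochondrial UMIs up to 10%. They left fewer cells than the study states for its own. Doublets were not called, and unequal mixtures of cells can pass a gate. UMIs were summed per class and library with at least 50 cells and divided by the total (CPM). 3′ counts were not scaled by length, so levels were compared between classes and not between genes. Lymphocyte levels under 3 UMIs were set to 3 UMIs in the 4-fold rule. Cells were thinned without replacement, and subset ratios used 0.5 added UMIs. The named genes were the 8 members, other complement genes of at least 20 CPM, genes that define a gate or subset, and for each member the 3 genes of highest r. C5ar2, Serping1, C1s1 and C1ra fall outside this rule and were named after their values were seen. Some genes that this rule names are not reported here. The members and lists were chosen with earlier results of these data known. The code of the 4-fold rule, which gives no p-value, was checked on simulated counts. The tools were pandas 2.3.3, scipy 1.17.1, numpy 2.4.6 and matplotlib 3.10.9 under Python 3.11.15. Intervals cover counting error only.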

Additional observations from a re-analysis of the deposited data

How the results depend on the processing

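With the limit raised to 8-fold above lymphocytes, 1 member remained in macrophages (C5ar1; 0.163% of all genes), 0 in monocytes (0.087%) and 0 in the neutrophil gate (0.424%). In monocytes the count of 3 became 6 with a gate at 4 times every other list, 8 in libraries without Y-linked transcripts, 5 without library 6 (chosen after seeing the data) and 7 with B cells as the floor, where 2.8%, 4.05%, 3.32% and 4.75% of all genes met it. The B cell floor rests on 1 library, gave 5 in the neutrophil gate (5.8% of all genes) and could give no value for dendritic cells. The stricter gate also moved the C1qa part of monocyte C1q UMIs from 36.85% to 35.45%. The cause of these shifts was not tested. The gate at 6 UMIs, the mitochondrial limit of 5%, no upper gene limit, no minimum CPM, T cells as the floor and the absence of library 4 left every count within 1.5 times, but not always the same members. At 6 UMIs Cfb was lost in macrophages and monocytes and C3 was gained in the neutrophil gate, and at 5% mitochondrial UMIs C3ar1 took the place of C5ar1 in monocytes. Of 32 member levels, 4 moved by more than 1 SD over libraries under the stricter gate and 0 without library 4 or library 6. In libraries with Y-linked transcripts 1 moved, in those without them 2, and with the lymphocyte level subtracted 2. With the neutrophil gate limited to S100-positive cells, 2 of its 8 levels moved. Subtracting the lymphocyte level left C1qb in dendritic cells at -23.3 CPM. Thinning to 500 UMIs moved 30 of 32 shares of cells. No paired analysis was possible because no label ties a library to a treatment and no test was run. Classes were compared within each library.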

Other observations

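Small cell sets gave values from summed UMIs, with exact Poisson 95% intervals that cover counting error only. The 125 cells led by collagens or Pecam1 held C3 at 70.4 CPM (57.7 to 85), with the C1 inhibitor Serping1 at 102 CPM (86.9 to 120), C1s1 at 51.5 (40.8 to 64.1) and C1ra at 34.5 (25.9 to 45.2). Serping1 and C1s1 were at 0.104 and 0.116 CPM in macrophages. The 28 plasmacytoid-gated cells held Cfp at 141 CPM (75.1 to 241), from 13 UMIs. The 29 patrolling monocytes held C1qa at 546.5 CPM (397 to 734), from 44 UMIs, and Cfp from 2 UMIs. This C1qa level lies within the range of lymphocytes over libraries (134 to 800 CPM).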
